A study of Saccharomyces cerevisiae with 4 samples.

Results

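The genes described here encode the sensors and kinases of the yeast Hog1 pathway. They were chosen by name, as the rows of the deposited table with the systematic names of MSB2 (YGR014W), HKR1 (YDR420W), SHO1 (YER118C), OPY2 (YPR075C), STE11 (YLR362W), SLN1 (YIL147C), SSK1 (YLR006C), SSK2 (YNR031C), PBS2 (YJL128C) and HOG1 (YLR113W). All 10 were found, among 6172 genes and unmatched reading frames in all. The study grew Saccharomyces cerevisiae carrying an rlm1 mutation in rich medium (YEPD) at 24 °C, split each culture after 2.5 h, and gave 5 units per ml of Zymolyase 100T, an enzyme preparation that digests wall glucan, to one part. Rlm1, the product of RLM1, is a transcription factor that the wall integrity kinase Slt2 activates. Cells of both parts were taken at 3 hours. Total RNA of the treated and the untreated part was labelled with Cy3 or Cy5 and hybridised together, giving 4 arrays from 2 cultures with the dyes exchanged. Every group here carried the rlm1 mutation. No strain with intact RLM1 was analysed here, and none of the sources used here gives the strain background or mating type.

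The Hog1 pathway is a mitogen-activated protein kinase cascade that answers loss of water from the cell. A pair of upstream branches, named for the membrane proteins Sho1 and Sln1, meet at the kinase Pbs2, which phosphorylates Hog1. Active Hog1 enters the nucleus and raises genes of glycerol synthesis and stress protection. Signalling runs through phosphorylation of proteins already present, and arrays measure only the RNA that encodes them.

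Values are log2 ratios of zymolyase over untreated RNA, with arrays 2 and 4, on which zymolyase RNA carried Cy5, multiplied by -1. The base of the log is assumed. That they needed turning is an inference: HSP12, RTC3 and GPD1, for example, have deposited values of opposite sign on arrays of opposite dye orientation. No source used here names the numerator dye. The direction used, Cy3 divided by Cy5, is the likely one, because it puts the known osmotic stress genes on the zymolyase side. The opposite reading turns every sign below. The arrays held values for 4815 to 5659 features, and array 2 had both the fewest values and the widest spread (SD 0.63, against 0.32 to 0.35 on the other 3). Across genes, the turned arrays correlated at Pearson r of 0.60 and 0.44 within a dye orientation and between -0.13 and 0.05 across orientations. Spearman's rho was negative for all 4 pairs of opposite orientation, from -0.21 to -0.10, so ranks over all genes run against the turning, which rests on genes with large values. A gene was called where its Benjamini-Hochberg adjusted p in limma was under 0.05 under both possible pairings of arrays into cultures. In that fit all genes received 1 shared standard error (0.16), and no mean smaller than 0.51 on the log2 scale passed. With 2 cultures an exact sign-flip test of a single gene cannot go below p = 0.5, and over 4 arrays not below 0.125. RLM1 had a value on 0 of the arrays, so the mutation could not be checked.

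No tested sensor or kinase of the pathway passed the test, and 3 of the 10 could not be tested. In RNA of whole cultures, fewer cells holding a transcript and less of it per cell cannot be told apart. The 7 genes measured on every array entered the test, and 0 were called, against 3.15% of the 4730 genes tested (111 higher and 38 lower). At that share a list of 7 genes would be likely to hold 0 calls whatever its genes. With each array centred on its median, 83 genes were higher and 14 lower, and with arrays scaled to 1 spread 89 and 18. At an unadjusted p under 0.05 in limma 2 of the 7 members, MSB2 and SSK1, would pass, against 12.5% of all genes. A limma fit with a dye term called 0 of them too, against 1.63% of all genes. Their median log2 ratio was -0.07, beside -0.01 over all genes tested, with 3 means above 0 and 4 below. The median size of their means, sign ignored, was 0.21, beside 0.12 over all genes. The median SD over the 4 arrays was 0.31 for the members and 0.30 for all genes.

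**Figure D1:**
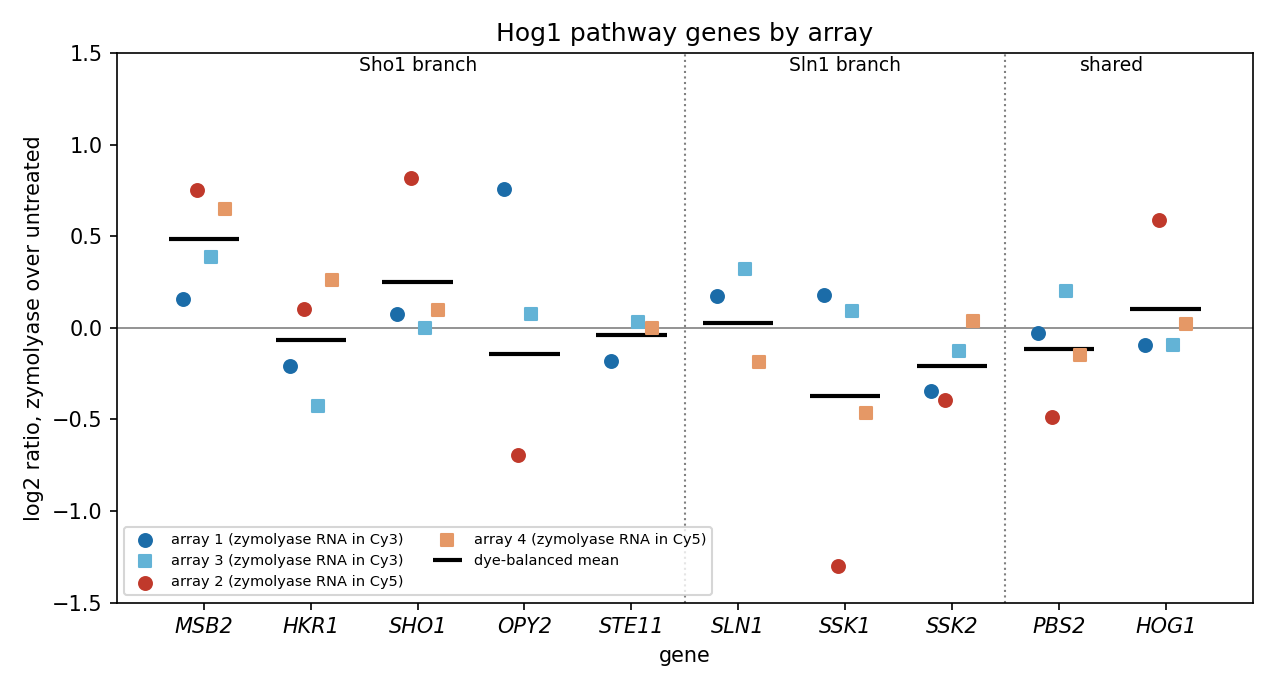
Log2 ratio of zymolyase over untreated RNA (vertical axis) for each of the 10 genes (horizontal axis), with 1 point per array coloured by dye orientation and a bar at the mean of the orientation means. MSB2 lies above 0 on all 4 arrays, SSK1 has the widest split by dye orientation among the tested genes, and OPY2, STE11 and SLN1 have 3 points each.

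The Sho1 branch begins with the glycosylated membrane proteins Msb2 and Hkr1, which carry mucin-like outer domains. MSB2 had log2 ratios of 0.15, 0.75, 0.39 and 0.65 on arrays 1 to 4. It was the sole tested member with 1 sign on all 4 arrays, a pattern held by 16.8% of all genes tested. This rests on the turning: with the deposited signs HKR1, SSK1 and HOG1 had 1 sign on all 4 arrays and MSB2 did not, and 28.5% of all genes had 1 sign. Its mean was 0.49 ± 0.27 (SD, n = 4 arrays from 2 cultures), or 1.40-fold, with a 95% interval from 0.17 to 0.80 under the shared standard error. The test across all genes did not call it (limma, adjusted p = 0.072), and 3.68% of genes had a mean of larger size. Pairing arrays 1 with 2 and 3 with 4 alone gave an adjusted p of 0.042, the sole setting of 15 that called MSB2; that fit called 3.87% of all genes. Over all 15 settings the adjusted p ran from 0.042 to 0.953. The mean was 0.27 with zymolyase RNA in Cy3 and 0.70 with it in Cy5. Ranked among all genes of the same array, MSB2 stood above 75.8%, 91.4%, 89.4% and 97.7% of them on arrays 1 to 4. The neighbouring genes on its chromosome, SNU71 and EAT1, had means of -0.02 and 0.05.

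HKR1 had log2 ratios of -0.21, 0.10, -0.43 and 0.26 on arrays 1 to 4. It was negative on both arrays with zymolyase RNA in Cy3 and positive on both with it in Cy5. The mean was -0.07 ± 0.31 (SD, n = 4 arrays; limma adjusted p = 0.96), and the interval of -0.39 to 0.25 holds changes of either sign. Left-out arrays are treated here as in the test, a culture being represented by its other array and both pairings averaged. By that measure the mean of HKR1 was 0.03 without array 1 and 0.08 without array 3, whereas the plain means of the other 3 arrays were -0.02 and 0.05. Both measures then give the Cy5 arrays more weight, and HKR1 had a mean of -0.32 in Cy3 and 0.18 in Cy5. A left-out mean with equal weight for each orientation was not computed. The paired mucin sensors differed from each other in 1 direction on the turned arrays: MSB2 exceeded HKR1 by 0.36, 0.65, 0.81 and 0.39 on arrays 1 to 4, a mean difference of 0.55 ± 0.22 (SD, n = 4 arrays). The choice of these genes followed the sight of their values, and their difference was not tested. Of the 21 pairs among the 7 tested members, 6 kept 1 order on all 4 arrays (28.6%, beside 17.9% of all pairs of genes tested). MSB2 was the higher gene in 4 of these 6, over HKR1, SSK2, PBS2 and HOG1. With the deposited signs MSB2 kept 1 order in 0 pairs, and its difference from HKR1 was 0.36, -0.65, 0.81 and -0.39. In that reading 7 of the 21 pairs kept 1 order (33.3%, beside 28.3% of all pairs).

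Sho1 is the 4-pass membrane protein that docks Pbs2 through its SH3 domain. SHO1 had log2 ratios of 0.08, 0.82, -0.0015 and 0.10 on arrays 1 to 4. Array 2 stood apart and the other 3 lay within 0.10 of 0. The mean was 0.25 ± 0.38 (SD, n = 4 arrays; limma adjusted p = 0.58), with an interval from -0.07 to 0.57, and it was 0.05 without array 2. The membrane anchor gene OPY2, whose product recruits the adaptor Ste50, had 0.76, -0.70 and 0.07 on arrays 1 to 3 and no value on array 4. Its values on arrays 1 and 2 are of like size and opposite sign, and those arrays are of opposite dye orientation. STE11, whose kinase this branch shares with the mating and filamentous growth cascades, had -0.18, 0.03 and -0.002 on arrays 1, 3 and 4 and no value on array 2. OPY2 and STE11 were left out of the test for their missing values. With genes on at least 3 arrays admitted, and a culture with a missing value represented by its other array, OPY2 stood at 0.14 (adjusted p = 0.97) and STE11 at -0.06 (adjusted p = 0.99), in limma over 5424 genes.

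In the Sln1 branch, the membrane histidine kinase Sln1 passes phosphate through Ypd1 to the response regulator Ssk1, and unphosphorylated Ssk1 activates the kinase Ssk2. SLN1 had log2 ratios of 0.17, 0.32 and -0.19 on arrays 1, 3 and 4 and no value on array 2. It was positive on the Cy3 arrays and negative on the single Cy5 array measured, and with genes on at least 3 arrays admitted it stood at 0.14 (limma adjusted p = 0.87). That value gives the Cy3 arrays more weight, and with equal weight for each orientation the mean was 0.03. SSK1 had 0.18, -1.30, 0.09 and -0.47 on arrays 1 to 4. The dye orientations did not overlap, as in every other tested member except SSK2, and the share over all genes was not computed. The mean of SSK1 was 0.13 with zymolyase RNA in Cy3 and -0.88 with it in Cy5. Only 4.97% of genes tested showed a larger difference between orientations. The mean over the 4 arrays was -0.37 ± 0.68 (SD, n = 4 arrays; limma adjusted p = 0.27), with an interval from -0.69 to -0.06 under the shared standard error. Without array 2 it was -0.02, a value that gives the Cy3 arrays more weight than array 4, the remaining Cy5 array. How much array 2 and the dye orientation each contributed was not tested. Were the ratios already turned before deposit, SSK1 would be called at 0.51 (limma adjusted p = 0.033), as would 6.68% of all genes.

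SSK2, the kinase that phosphorylates Pbs2 in this branch, had log2 ratios of -0.35, -0.39, -0.13 and 0.04 on arrays 1 to 4. It was below 0 on 3 arrays and close to 0 on the other, with little difference between dye orientations (-0.24 in Cy3 and -0.18 in Cy5). The mean of -0.21 ± 0.20 (SD, n = 4 arrays) did not pass (limma adjusted p = 0.69; interval -0.52 to 0.11). It kept its sign in all 15 settings, between -0.27 and -0.03, but many of these could not change it. Each pairing alone, the 4-array fits, robust eBayes and admitting genes on at least 3 arrays left the mean at -0.21.

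The shared kinases had means close to 0. PBS2, whose kinase doubles as the scaffold of the Sho1 branch, had -0.03, -0.48, 0.20 and -0.15 on arrays 1 to 4. Both signs occurred, and the mean was -0.12 ± 0.29 (SD, n = 4 arrays; limma adjusted p = 0.90; interval -0.43 to 0.20). HOG1, the pathway's last kinase, had -0.09, 0.59, -0.09 and 0.02. Array 2 stood apart and the other 3 lay within 0.10 of 0. Its mean was 0.10 ± 0.33 (SD, n = 4 arrays; limma adjusted p = 0.92). The interval of -0.21 to 0.42 corresponds to 0.862-fold to 1.34-fold. Without array 2 both means changed sign, to 0.03 for PBS2 and -0.07 for HOG1, with the Cy3 arrays then given more weight. The full orientation means were 0.08 in Cy3 and -0.32 in Cy5 for PBS2, and -0.09 and 0.30 for HOG1.

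No test was made of a branch as a whole. The median over the Sho1 branch genes was 0.08, 0.43, 0.03 and 0.18 on arrays 1 to 4, over 4 or 5 genes measured. The median over the Sln1 branch genes was 0.17, -0.85, 0.09 and -0.19, over 2 or 3 genes. The branches stood far apart on array 2, on which SSK1 had its lowest value, and less so on array 4. On arrays 1 and 3 the Sln1 branch had the higher median of the pair.

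**Figure D2:**
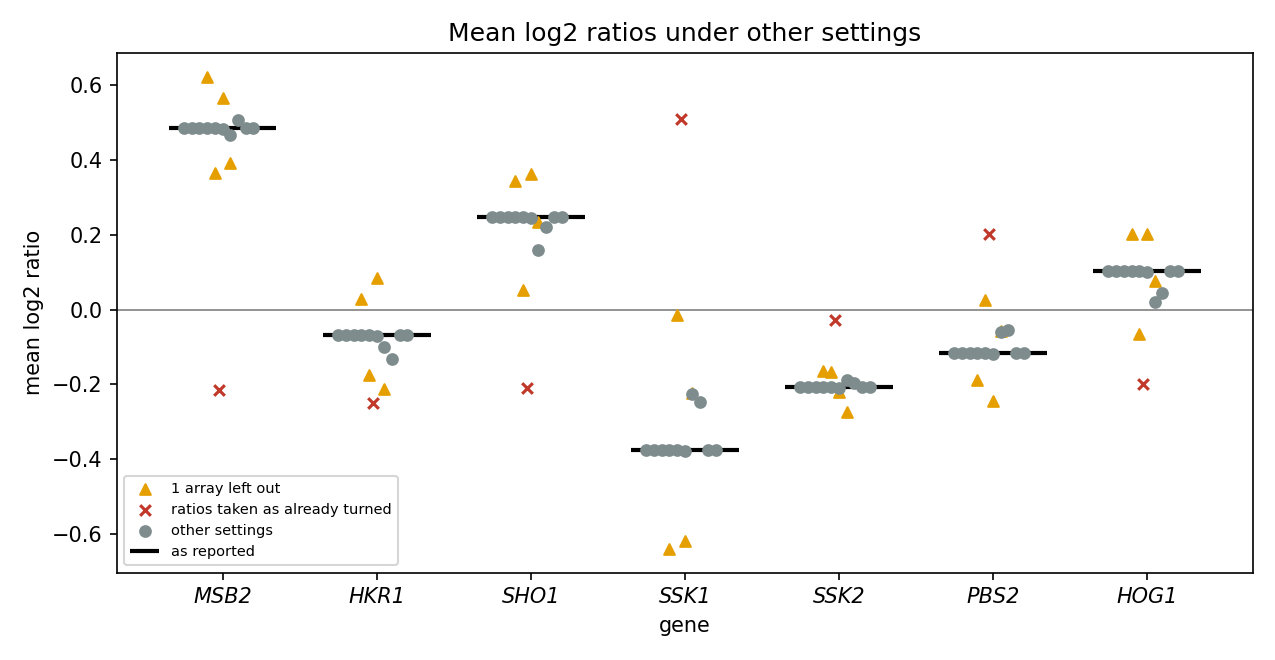
Mean log2 ratio (vertical axis) of the 7 tested genes (horizontal axis) as reported (bar), with 1 array left out (triangles), with the deposited ratios taken as already turned (crosses) and under 10 other settings (circles). MSB2 stays between 0.37 and 0.62 with 1 array left out, whereas HKR1, PBS2 and HOG1 cross 0. Leaving out 1 array gives the opposite dye orientation more weight in the mean.

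Other genes of the pathway are given by list. At a share of 3.15% called among all genes, lists this short would be likely to hold 0 calls whatever their genes. Among 8 other pathway components, 7 were tested and 0 passed (median -0.02). The largest means were those of the Cdc42-activated kinase gene CLA4 (0.20 ± 0.53; limma adjusted p = 0.70) and of CDC42 itself (-0.08 ± 0.67; adjusted p = 0.95). CDC42 had 0.67, -0.94, -0.14 and 0.10 on arrays 1 to 4, so its mean hid opposite values. In the list of phosphatases that switch Hog1 off, which also holds the adaptor gene NBP2, 5 of 6 genes were tested and 0 passed (median 0.06). PTC2 had the mean of largest size (-0.29 ± 0.36; adjusted p = 0.47), followed by PTC1 (0.08 ± 0.34; adjusted p = 0.95). Hog1's downstream kinases and transcription factors, a list that also holds SKN7 of the Sln1 branch, had 4 of 9 tested, with 0 past the test and a median of 0.24.

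Among those factors the stress activator gene MSN2 was positive on all 4 arrays, at 0.07, 1.08, 0.48 and 0.34. Its mean was 0.49 ± 0.43 (SD, n = 4 arrays; limma adjusted p = 0.068), and like MSB2 it was called with arrays 1 and 2, and 3 and 4, as cultures (adjusted p = 0.039). SMP1 followed at 0.37 ± 0.38 (adjusted p = 0.29). MSN4, the relative of MSN2, had no value on array 2 and 0.80, 0.76 and 0.25 on arrays 1, 3 and 4. With genes on at least 3 arrays admitted it was called at 0.65, as were 2.78% of the genes in that fit. That value gives the Cy3 arrays, 1 and 3, more weight than array 4, the single Cy5 array measured. The list's other genes with 3 values had plain means below 0, at -0.35 for MSN1, -0.18 for SKN7 and -0.08 for HOT1. These genes and MSN4 are outside the naming rule, and MSN4 was chosen with its values in view.

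Of 18 osmotic stress targets, 14 were tested, 11 rose, 0 fell and 3 did not pass (median 0.95, beside -0.01 over all genes; 2.35% of all genes were called higher and 0.803% lower). Both the turning of arrays 2 and 4 and the direction of the ratio were read from genes of this kind. Their calls, sizes and direction are therefore not independent evidence. With the deposited ratios taken as already turned, the 1 call in the lists other than the members was MKK1. GPD1, the gene of the enzyme that starts glycerol synthesis, had 2.37, 2.20, 1.42 and 1.38 on arrays 1 to 4 (mean 1.84 ± 0.52, or 3.59-fold). GPP2, the phosphatase gene of the next step, lay between 1.31 and 1.60 (mean 1.43 ± 0.12). The others that rose were HSP12 (2.75 ± 0.49), RTC3 (2.73 ± 0.89), GRE2 (1.42 ± 0.49), ALD3 (1.34 ± 0.41), MSC1 (1.01 ± 0.18), RTN2 (0.89 ± 0.52), DAK1 (0.81 ± 0.05), GPP1 (0.72 ± 0.17) and GRE3 (0.58 ± 0.25). RTN2, an endoplasmic reticulum reticulon gene, was 0.14 on array 2 and between 0.92 and 1.32 on the other 3. In the fit with a dye term 10 of the targets passed, GRE3 no longer being called (adjusted p = 0.055). With 1 array left out, 4 to 7 of the targets were called, each time with GPD1, HSP12 and RTC3 among them. RTC3 was not called with robust eBayes, nor GRE3 with each array centred on its median. The targets that did not pass were HOR7 (0.37 ± 0.34), PAI3 (0.34 ± 0.39) and ENA1 (-0.19 ± 0.48). The catalase gene CTT1, which had no value on array 2, was called at 1.10 with genes on at least 3 arrays admitted. Like MSN4, CTT1 was chosen with its values in view. GRE1 stood at -0.49 on its only array, array 3, and SIP18 at 0.86 and 0.36 on arrays 1 and 3.

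**Figure D3:**
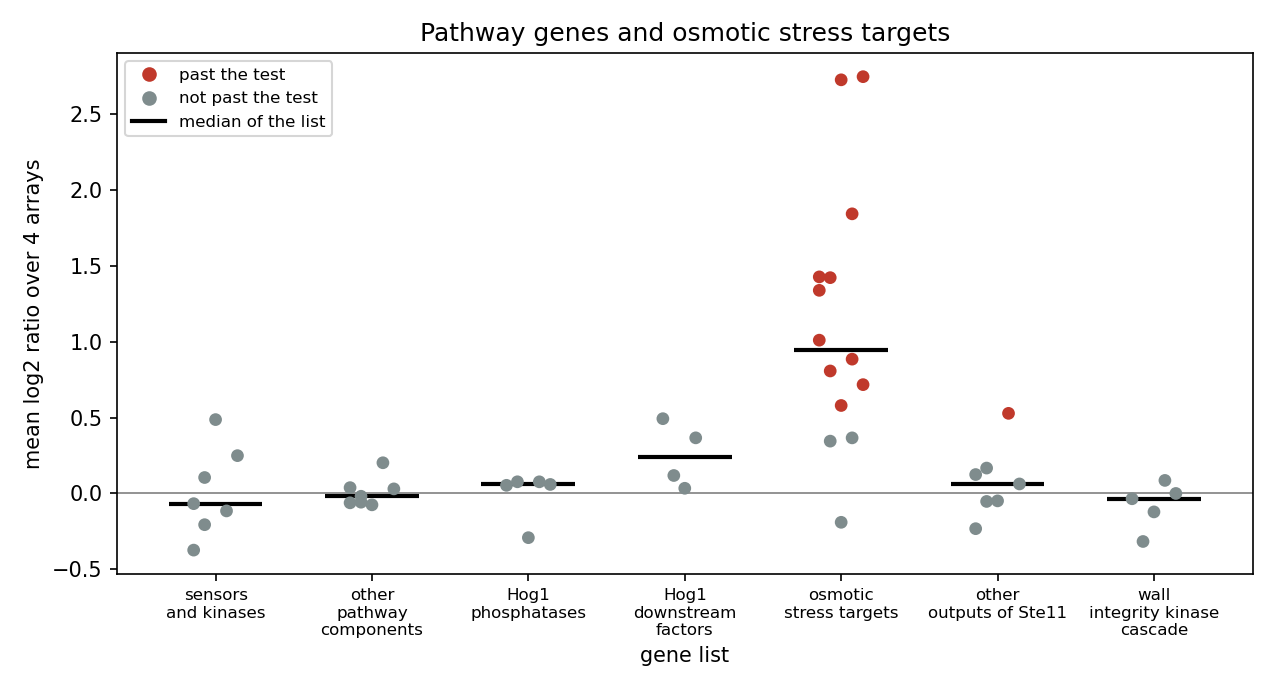
Mean log2 ratio over the 4 arrays (vertical axis) of every tested gene in each of 7 lists (horizontal axis), red where limma called the gene, with a bar at the list's median. Calls lie among the osmotic stress targets (11 of 14) apart from KSS1 among the other outputs of Ste11.

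Ste11 also feeds the mating and filamentous growth kinases, and 7 genes of those cascades were tested. KSS1, the filamentous growth kinase gene, rose and the other 6 did not pass, where 2.35% of all genes were called higher. It had 0.49, 1.04, 0.13 and 0.45 on arrays 1 to 4, a mean of 0.53 ± 0.38 (SD, n = 4 arrays; limma adjusted p = 0.041). The call held in 3 of the 15 settings, each pairing alone and robust eBayes. For each pairing alone this follows from the rule, which needs both pairings to pass, so it is no further check. The call was lost in the other settings, among them the limma fit with a dye term (adjusted p = 0.13). In the wall integrity kinase cascade, the parallel pathway whose kinase Slt2 acts on Rlm1, 0 of 5 genes passed (median -0.04; 3.15% of all genes were called). MKK1 had its largest mean (-0.32 ± 0.85; adjusted p = 0.40). Like SSK1 and most other tested members, MKK1 was split by dye orientation, with 0.73 on array 1, 0.00 on array 3, -0.92 on array 2 and -1.08 on array 4. MKK2 had a mean of -0.12 ± 0.23 and SLT2 of -0.001 ± 0.46.

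**Figure D4:**
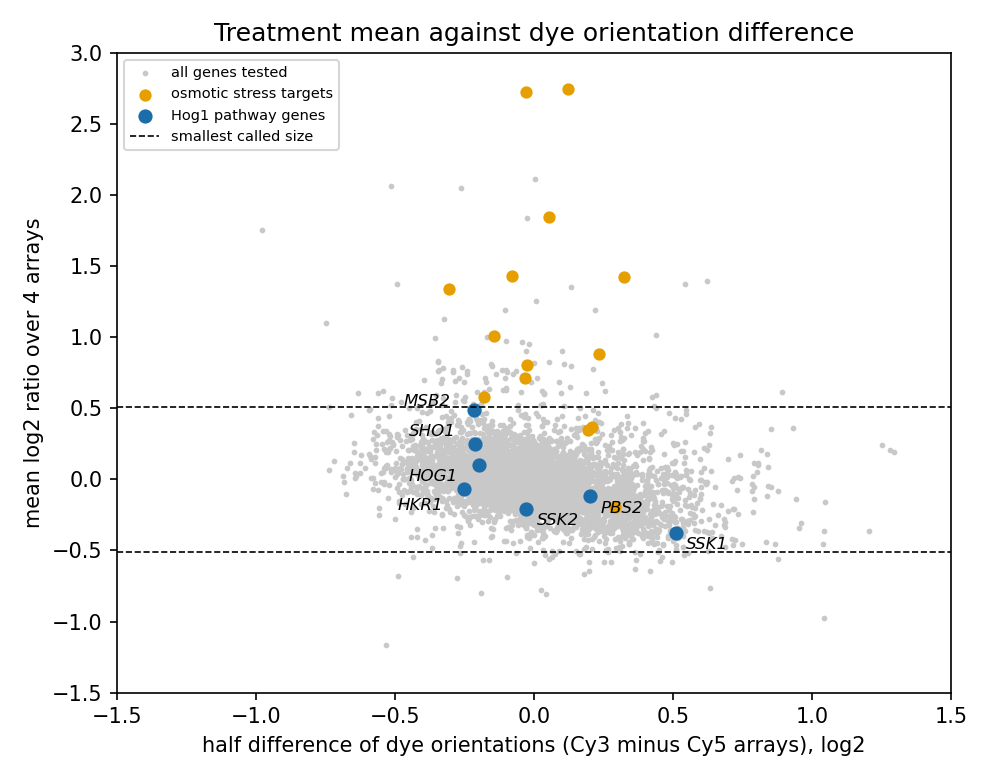
Mean log2 ratio over 4 arrays (vertical axis) against the mean of the Cy3 arrays minus that of the Cy5 arrays, divided by 2 (horizontal axis), for all genes tested (grey), the osmotic stress targets (orange) and the 7 tested sensors and kinases (blue), with dashed lines at the smallest called size of 0.51. The blue points lie between the dashed lines, SSK1 far to the right at 0.51 and MSB2 just under the upper line. The axes leave out 1 gene.

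The genes whose 4 values lay nearest to those of HOG1 and MSB2 were found by Euclidean distance over the turned arrays, among 4214 other tested genes with a standard name. For HOG1 they were NFS1, ATP25 and NUP53, at distances of 0.035, 0.056 and 0.058 on the log2 scale. All 3 share with HOG1 a value between 0.55 and 0.62 on array 2 and values near 0 or below on the others. For MSB2 they were RGI1 (distance 0.17), SCW11 (0.21) and GRE3 (0.22). GRE3, the aldose reductase gene among the osmotic targets, had 0.28, 0.88, 0.52 and 0.64 on arrays 1 to 4, like MSB2 lowest on array 1 and highest on array 2. With 4 arrays such likeness describes these values only.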

How the data were processed

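The data are 2-colour arrays of treated against untreated RNA. The authors deposited 1 log ratio of the channels per feature and array, taken here as log2 values. No source used here gives the scanner, background correction, normalization or rule for blanks. Signal over background is unknown without intensities, so precision is limited by the number of arrays. Of 6209 features, 2 controls were left out, 5711 matched a gene of the R64 RefSeq gene table (57 by an older name), and features of 1 gene were averaged (34 genes). The reference served for names and neighbours only.

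Ratios were turned to zymolyase over untreated. The 2 arrays of a culture were averaged and tested with lmFit and eBayes in limma 3.58.1 (R 4.3.3). The arrays of each culture are not named, so both pairings were fitted and the larger adjusted p is given. Each gene had 1 residual degree of freedom and the estimated prior was infinite, so every gene received the same standard error, and the test takes no account of a gene's own spread. Nothing says that samples beyond the 2 cultures were independent. SDs over 4 arrays mix dye, technical and culture differences. Scripts were tested on simulated data.

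The members and all lists were chosen with earlier results of these data known. Named genes were all members, every called gene of the other lists or, where none was called, the pair of largest mean size, the 3 nearest genes to HOG1 and to MSB2, and RLM1 and SLT2. In all, 15 alternative settings were run. For a left-out array its culture was represented by the other array, and values are means over both pairings. A missing value was treated in the same way, and in either case the dye orientations then carry unequal weight.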

Additional observations from a re-analysis of the deposited data

Results flagged for a closer look

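Both flagged genes were picked out because 1 array lay far from the other 3: its gap to the nearest value, set against the whole range, passed Dixon's 95% critical value for 4 samples. Chance flags about 1 in 20 groups where the 4 values have equal spread, which these arrays did not have. In all, 33 named genes with 4 values were examined. They include the genes picked as nearest to HOG1 and MSB2, so they are not independent groups. SHO1 stood at 0.82 on array 2, with a gap of 0.878 of its range. HOG1 stood at 0.59 on the same array, with a gap of 0.835. Array 2 also had the widest log2 ratios of all arrays and the most features without a value (1394), and the part of that spread in these values was not tested.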

How the results depend on the processing

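Of the 7 tested sensors and kinases, 0 passed in 13 of the 15 settings. MSB2 alone passed (1 call) with arrays 1 and 2, and 3 and 4, as cultures, and SSK1 alone (1 call) with the deposited ratios taken as already turned. The latter setting reversed MSB2 (-0.22), SHO1 (-0.21), SSK1 (0.51), PBS2 (0.20) and HOG1 (-0.20), took the members' median to -0.20, left 1 call among the other lists against 12, and called 215 genes higher and 101 lower. The cause of no change listed here was tested. HKR1 reversed without array 1 (0.029) and array 3 (0.084), and without array 2 PBS2 (0.026) and HOG1 (-0.066) did. In such means the opposite dye orientation carries more weight, and means with equal weight were not computed. With 1 array left out HKR1 ran from -0.21 to 0.084, PBS2 from -0.25 to 0.026, HOG1 from -0.066 to 0.20, the members' median ran from -0.016 to 0.084, calls in the other lists from 4 to 7, and over all genes 8 to 23 were higher and 0 to 3 lower. The count lower was 14 with each array centred on its median and 18 with arrays scaled to 1 spread. A dye term gave 68 higher and 9 lower, array weights with it 65 and 9, and no dye term 17 and 0, with 7 in the other lists. Admitting genes on at least 3 arrays, which adds 3 members, put the members' median at 0.023. For those 3 members the Cy3 arrays carry more weight. Under the main rule means below 0.51 on the log2 scale did not pass, and 4 arrays from 2 cultures limit the precision.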
